A study of Mus musculus with 9 samples.

Results

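The genes described here encode fatty acid desaturases and elongases: the stearoyl-CoA desaturases Scd1 and Scd2, the fatty acid desaturases Fads1, Fads2 and Fads3, and the elongases Elovl1, Elovl2, Elovl3 and Elovl5. They were listed by gene symbol, and all 9 had a value among the 19938 genes of the array, each from 1 probe set. Liver RNA of male C57Bl/6J mice was measured in 9 pools of 5 mice, with 1 Affymetrix Mouse Gene 1.0 ST array for each pool. Diets held fat at 10 (LF) or 35 energy% (HF) and protein at 15 (NP) or 50 energy% (HP). The reference pool was taken at week 0, from mice aged 12 weeks that had eaten LF-NP during a run-in of 2 weeks. The other 8 pools came from mice that went on with LF-NP or were moved to LF-HP, HF-NP or HF-HP for 1 or 12 weeks (labelled ages of 13 and 22 weeks). The label of 22 weeks is lower than 12 weeks of feeding from an age of 12 weeks would give. Carbohydrate gave 75 energy% in LF-NP, 50 in HF-NP, 40 in LF-HP and 15 in HF-HP. More protein and more fat thus each went with less carbohydrate, and neither can be told apart from it. All mice ate a calibrated meal before the liver was removed, so the values are postprandial. Pooling leaves 1 value for each diet and time, and the spread between mice was not measured.

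Desaturases place a double bond into a fatty acyl-CoA, and elongases add carbon units to its end in the endoplasmic reticulum. In liver, Scd enzymes make oleate and palmitoleate from saturated fatty acids, while Fads2, Elovl5, Fads1 and Elovl2 act in turn to make arachidonic acid and docosahexaenoic acid from the essential fatty acids of the diet. Several of these genes are known targets of SREBP-1c, which is driven by insulin, and of the liver X receptor, ChREBP and PPAR-alpha.

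The values are log2 estimates of the robust multiarray analysis (RMA), so a difference of 1 is a doubling of signal. Array medians differed by at most 0.0643, and arrays correlated with each other between 0.9883 and 0.9928. Since probes differ in brightness, pools were compared within each gene and no gene was set against another by level. RMA values repeat exactly between pools in 62.2% of genes, including Scd2, Elovl2 and Elovl3. Albumin lay between 13.72 and 14.05 in all pools, and the adipocyte genes Adipoq and Lep lay between 3.19 and 3.40 and between 3.95 and 4.47. The summed signal of the 7 adipocyte markers with a value was 8.49 to 9.06, lowest in LF-NP and highest in HF-HP at 12 weeks, and its part in the results was not tested. In such bulk RNA, fewer cells of a type and less RNA per cell cannot be told apart.

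None of the 9 genes passed the test between HP and NP pools (limma over 8 diet pools, adjusted p under 0.05), against 0.441% of all genes. The 4 HP pools lay wholly above the 4 NP pools for 0 of 9 genes (1.88% of all genes) and wholly below for 0 of 9 (2.91%). A single member, Elovl1, had an unadjusted p under 0.05, against 10.3% of all genes. The differences of the 9 ranged from -0.29 to 0.27 with a median of 0.08, and 6 were positive (median of all genes -0.0043, with 48.1% positive). Among related genes, the elongase Elovl6 fell by 0.51 with HP feeding (SE 0.07, adjusted p = 0.0446), as described after the members. That call was lost with any 1 diet pool left out (adjusted p of 0.0821 to 0.177). Whether Elovl6 differs from the members in its response was not tested.

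**Figure D1:**
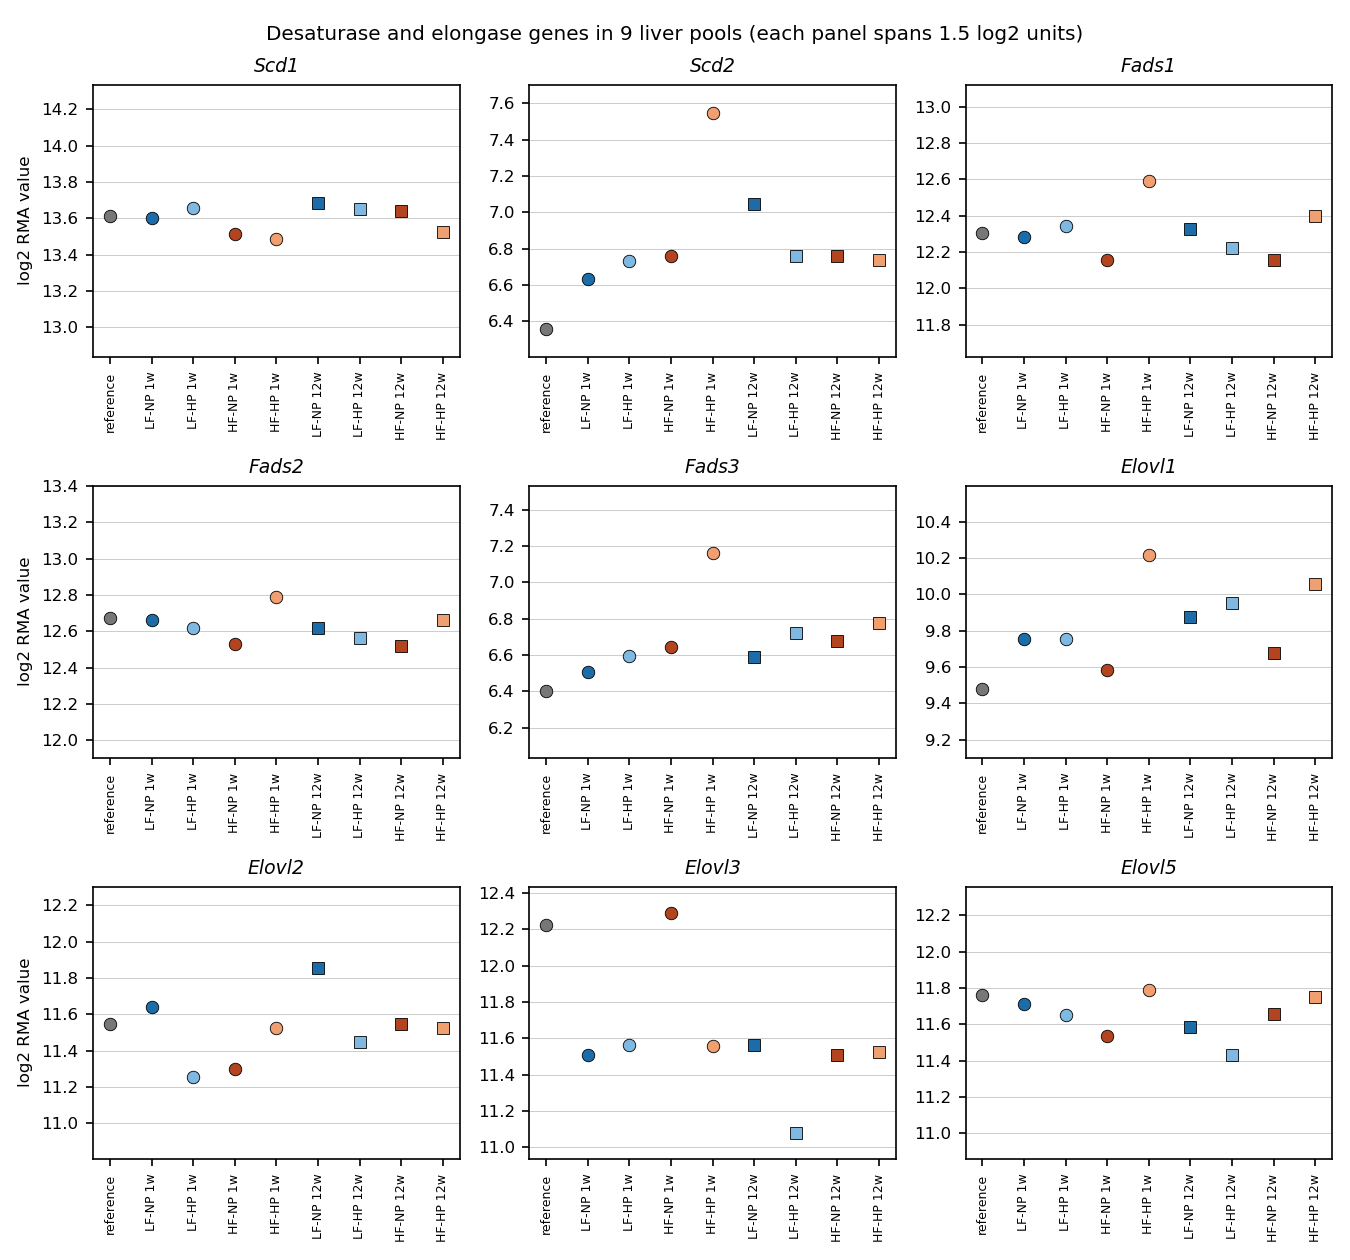
Log2 RMA value (y axis) of the 9 desaturase and elongase genes in each of the 9 pools (x axis), 1 point per pool of 5 mice, circles for the reference and 1 week and squares for 12 weeks; every panel spans 1.5 log2 units, so distances can be compared between panels. Scd1 stays between 13.49 and 13.68, whereas Scd2, Fads3 and Elovl1 have their highest point in the HF-HP pool of 1 week, and Elovl3 is high in the reference and in the HF-NP pool of 1 week.

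Scd1, the main stearoyl-CoA desaturase of liver, had the narrowest range of the 9 genes, 0.20 on the log2 scale. Its value was 13.61 in the reference, 13.60 in LF-NP, 13.65 in LF-HP, 13.51 in HF-NP and 13.49 in HF-HP after 1 week, and 13.68, 13.65, 13.64 and 13.52 in the same order after 12 weeks. The HP and NP pools overlapped, with means of 13.58 ± 0.09 and 13.61 ± 0.07 (SD, n = 4 each). The HP minus NP difference was -0.03, with a 95% interval from -0.16 to 0.10 (adjusted p = 0.912). Scd1 was lower in HF than in LF in all 4 matched pairs, by 0.11 on average (interval -0.24 to 0.021, adjusted p = 0.999). Its highest value lay 0.77 below the highest value of the whole table, and compression of the signal at such levels was not tested.

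Scd2, a stearoyl-CoA desaturase known mainly from brain and from neonatal liver, read 6.36 in the reference, then 6.64, 6.73, 6.76 and 7.55 at 1 week and 7.05, 6.76, 6.76 and 6.74 at 12 weeks, with the diets in the order LF-NP, LF-HP, HF-NP, HF-HP. The HF-HP pool of 1 week stood 0.50 above the next pool, which is more than the residual SD of 0.36, and the other 7 gaps between neighbours in the order were within it. HP minus NP was 0.14 (interval -0.30 to 0.59, adjusted p = 0.871), and -0.09 (interval -0.32 to 0.13, adjusted p = 0.83) without that pool. Reference RNA gave the lowest value, and all 8 diet pools lay above it.

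Fads1 and Fads2, the delta-5 and delta-6 desaturases of polyunsaturated fatty acids, had similar profiles. Both genes and Fads3 are neighbours on chromosome 19. Fads1 read 12.30 in the reference, 12.28, 12.34, 12.15 and 12.59 at 1 week and 12.32, 12.22, 12.15 and 12.40 at 12 weeks, in the same order. Its lowest pools were thus both HF-NP pools and its highest both HF-HP pools. Fads2 read 12.68 in the reference, 12.66, 12.62, 12.53 and 12.79 at 1 week and 12.62, 12.56, 12.52 and 12.66 at 12 weeks. The same 2 HF-NP pools were lowest, while HF-HP at 12 weeks lay just under the reference. Over all 9 pools the values of both genes correlated with r = 0.94, and with r = 0.86 without the HF-HP pool of 1 week, as a description over pools that share this design. HP minus NP was 0.16 (interval -0.05 to 0.37, adjusted p = 0.643) for Fads1 and 0.08 (interval -0.09 to 0.24, adjusted p = 0.8) for Fads2.

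Fads3, a family member that acts on sphingoid bases, read 6.40 in the reference, 6.51, 6.59, 6.64 and 7.16 at 1 week and 6.59, 6.72, 6.68 and 6.78 at 12 weeks. HF-HP at 1 week was 0.39 above the next pool, against a residual SD of 0.16, and no other gap exceeded that SD. Fads3 was higher in HP than in NP in 4 of 4 matched pairs and higher in HF than in LF in 4 of 4. The estimates were 0.21 (interval -0.016 to 0.44, adjusted p = 0.528) for protein and 0.21 (interval -0.013 to 0.44, adjusted p = 0.999) for fat, so neither passed. Without the HF-HP pool of 1 week, the protein estimate was 0.10.

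Elovl1, which elongates saturated very long chain fatty acids used in sphingolipids, came closest to the threshold among the members. It read 9.48 in the reference, 9.75, 9.75, 9.58 and 10.22 at 1 week and 9.87, 9.95, 9.68 and 10.06 at 12 weeks. All 8 diet pools lay above the reference, by between 0.10 and 0.74, and both HF-HP pools were highest. HP pools averaged 10.00 ± 0.20 and NP pools 9.72 ± 0.12 (SD, n = 4 each), with overlap. The difference was 0.27 (SE 0.11, interval 0.015 to 0.53, adjusted p = 0.454). It was 0.16 (interval -0.05 to 0.37, adjusted p = 0.638) without the HF-HP pool of 1 week.

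Elovl2 and Elovl5 elongate polyunsaturated fatty acids, Elovl5 at earlier and Elovl2 at later steps of the pathway to docosahexaenoic acid. Elovl2 read 11.55 in the reference, 11.64, 11.25, 11.30 and 11.53 at 1 week and 11.85, 11.45, 11.55 and 11.53 at 12 weeks. Both LF-NP pools were its highest. HP minus NP over all diet pools was -0.15 (interval -0.40 to 0.11, adjusted p = 0.743). Elovl5 read 11.76 in the reference, 11.71, 11.65, 11.54 and 11.79 at 1 week and 11.59, 11.43, 11.65 and 11.75 at 12 weeks, and none of its 8 gaps between neighbouring pools exceeded its residual SD of 0.13. Its HP minus NP difference was 0.03 (interval -0.16 to 0.23, adjusted p = 0.943).

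Elovl3, an elongase of saturated and monounsaturated fatty acids that is known in liver for its daily rhythm and its male bias, had the widest range of the members, 1.21 on the log2 scale or 2.32-fold. It read 12.22 in the reference and 12.29 in HF-NP at 1 week. The other 1 week pools read 11.51 (LF-NP), 11.57 (LF-HP) and 11.56 (HF-HP), and those of 12 weeks 11.57, 11.08, 11.51 and 11.52. A gap of 0.66 separated the reference and HF-NP 1 week pools from the other 7, and a further gap of 0.43 set LF-HP at 12 weeks below the rest, both over the residual SD of 0.25. LF-NP at 1 week, on the same diet as the reference, lay 0.71 below it, with age and time on the diet as the labelled differences. HP minus NP was -0.29 (interval -0.61 to 0.03, adjusted p = 0.547), HF minus LF 0.29 (interval -0.03 to 0.61, adjusted p = 0.999) and 12 weeks minus 1 week -0.31 (interval -0.63 to 0.0076, adjusted p = 0.642). None passed.

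**Figure D2:**
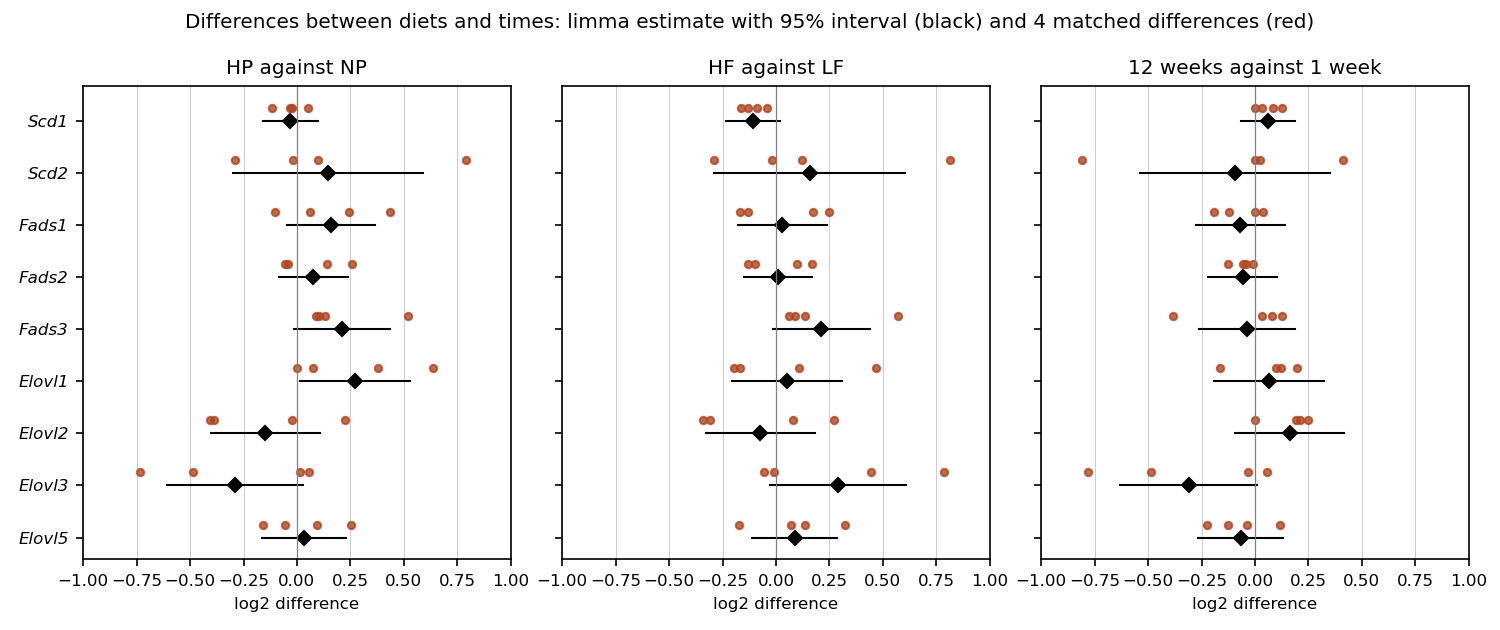
Log2 differences (x axis) of each gene (y axis) for HP against NP, HF against LF and 12 weeks against 1 week. Black diamonds and lines are the limma estimates and 95% intervals over 8 diet pools, and red dots are the 4 matched differences behind each. Every interval except that of Elovl1 for HP against NP (0.015 to 0.53) covers 0, and Elovl1 did not pass after adjustment.

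Dietary fat and the duration of feeding gave no call among the members. Between HF and LF pools 0 of 9 passed (0% of all genes), with 0 at an unadjusted p under 0.05 (3.33% of all genes), and the estimates ran from -0.11 for Scd1 to 0.29 for Elovl3. No member was wholly higher in HF (0.341% of all genes) or wholly lower (0.366%). Between 12 weeks and 1 week 0 of 9 passed (0.00502%), again with 0 at an unadjusted p under 0.05 (7.71%), 0 wholly higher (0.692%) and 0 wholly lower (2.1%). Scd1 was higher at 12 weeks in 3 of 4 diets and Fads2 lower in 4 of 4, by no more than 0.13 in any of these pairs.

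The pool of HF-HP at 1 week recurred in these profiles. It was the highest of the 9 pools for 6 of 9 members (Scd2, Fads1, Fads2, Fads3, Elovl1 and Elovl5), and 11.3% of all genes had their highest value there. With each array centred on its median the count was 5, since Elovl5 lies only 0.03 above the reference. At 12 weeks the HF-HP pool was the highest for 0 of 9 members and for 14.7% of all genes. Of 8 markers of stellate cells and fibroblasts, 3 (Col1a1, Col1a2 and Col3a1) also had their highest value in HF-HP at 1 week, and the others did not. Col3a1 read 7.01 against 6.70 to 6.75 in the other pools, and Col1a1 7.09 against 7.06 in LF-HP at 12 weeks. Tat, Lyve1 and Adipoq, 1 marker each of hepatocytes, sinusoidal endothelium and adipocytes, were highest there too. The summed signal of the 8 stellate cell and fibroblast markers was 12.17 there, within its range of 11.97 to 12.22, and highest in HF-HP at 12 weeks. The summed signal of 8 Kupffer cell and macrophage markers was 11.46 there, within a range of 10.69 to 11.57. Their part in the values of this pool was not tested. When the pool was left out, 0 of 9 members passed between HP and NP (0.181% of all genes), and Elovl2 alone had an unadjusted p under 0.05 (9.85% of all genes), with a difference of -0.25 (interval -0.48 to -0.019, adjusted p = 0.467).

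RefSeq promoter sequences (build GRCm38.p6) were at hand for 5 of the 9 members, among them 4 of the 6 highest in HF-HP at 1 week. The 180 bases before the transcription start of these 4 are printed to show which motifs of known regulators they hold. For Elovl1 the first of the 2 starts listed was taken. Capitals mark, on either strand, the E-box CACGTG, the CCAAT box and the GC box GGGCGG. The sterol regulatory element was also searched, as TCACNCCAC. The windows are chr4:118427913-118428092 (plus strand) for Elovl1, chr9:77917185-77917364 (plus strand) for Elovl5, chr19:10041368-10041547 (plus strand) for Fads3 and chr19:10101504-10101683 (minus strand) for Fads2.
Elovl1: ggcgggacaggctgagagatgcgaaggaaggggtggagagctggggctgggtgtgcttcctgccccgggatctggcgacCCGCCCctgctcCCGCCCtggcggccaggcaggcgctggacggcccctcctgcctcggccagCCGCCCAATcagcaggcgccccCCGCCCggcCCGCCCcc
Elovl5: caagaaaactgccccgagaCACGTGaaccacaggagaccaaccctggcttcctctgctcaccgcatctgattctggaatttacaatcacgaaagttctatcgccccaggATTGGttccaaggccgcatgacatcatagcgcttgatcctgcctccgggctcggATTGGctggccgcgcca
Fads3: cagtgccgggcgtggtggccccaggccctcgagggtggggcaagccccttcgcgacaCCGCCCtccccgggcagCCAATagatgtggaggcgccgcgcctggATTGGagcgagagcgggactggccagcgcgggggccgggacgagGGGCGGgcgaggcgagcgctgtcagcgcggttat
Fads2: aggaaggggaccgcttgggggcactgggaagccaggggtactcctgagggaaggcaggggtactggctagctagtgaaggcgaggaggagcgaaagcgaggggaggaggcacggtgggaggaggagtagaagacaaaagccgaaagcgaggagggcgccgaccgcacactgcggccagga

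Elovl5 was the one window of the 4 with an E-box, which starts 161 bases before the transcription start and which 4.81% of all 32851 RefSeq windows of this length hold. Elovl5 also holds 2 CCAAT boxes on the reverse strand, 71 and 17 bases before the start, Fads3 holds 1 on each strand (106 and 78 bases before) and Elovl1 holds 1 (35 bases before), which overlaps a GC box. CCAAT boxes stand in 27.5% and GC boxes in 30.2% of all windows. Elovl1 holds 5 GC boxes and Fads3 holds 2. The second Elovl1 start, not printed, holds 2 GC boxes and none of the other motifs. Elovl2, which was not highest in HF-HP at 1 week, holds 5 GC boxes before 1 start and 0 motifs before its other. None of these letters occurs in the Fads2 window, and the sterol element, found in 0.773% of all windows, occurs in none of the 4. Such matches describe the letters of these windows only, and factor binding was not measured.

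The question whether HP feeding acted in the same way on both fat levels was asked by the interaction of protein and fat. It passed for 0 of 9 members (0% of all genes), and 3 of 9 had an unadjusted p under 0.05, Elovl2, Elovl1 and Fads1 (7.02% of all genes). For these 3 the HP minus NP difference on HF exceeded that on LF by 0.50 (interval 0.19 to 0.81, adjusted p = 0.642), 0.47 (interval 0.11 to 0.82, adjusted p = 0.687) and 0.36 (interval 0.05 to 0.66, adjusted p = 0.706). The estimate was positive for 7 of 9 members with a median of 0.28, while the median of all genes was 0.03 with 56.6% positive.

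On the low fat background, Elovl2 was lower in LF-HP than in LF-NP by 0.39 after 1 week and by 0.41 after 12 weeks. The estimate over both weeks was -0.40 (interval -0.62 to -0.18, adjusted p = 0.257). On high fat the matched differences of Elovl2 were 0.23 and -0.02. Elovl1 behaved otherwise, with differences of 0.00 and 0.08 on low fat and of 0.64 and 0.38 on high fat (estimate on high fat 0.51, interval 0.26 to 0.76, adjusted p = 0.167). Fads1 differed by 0.06 and -0.10 on low fat and by 0.44 and 0.24 on high fat (estimate on high fat 0.34, interval 0.12 to 0.55, adjusted p = 0.278). Fads2 differed by -0.04 and -0.06 on low fat and by 0.26 and 0.14 on high fat (estimate on high fat 0.20, interval 0.015 to 0.39, adjusted p = 0.497). With 2 pools a side, none of these within-background differences passed. The interaction of protein with week passed for 0 of 9 members (0%), with 0 at an unadjusted p under 0.05 (2.62% of all genes). Its largest estimate was that of Scd2, -0.60 (interval -1.40 to 0.20, adjusted p = 1.0).

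**Figure D3:**
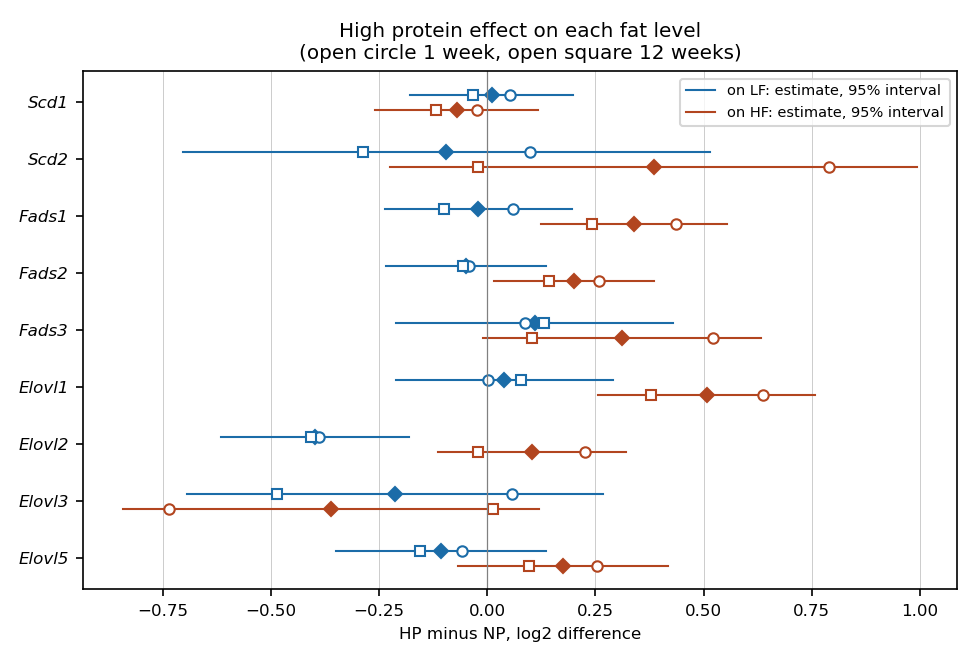
HP minus NP log2 difference (x axis) of each gene (y axis) on the low fat (blue) and high fat (red) background; open circles are the pools of 1 week, open squares those of 12 weeks, and diamonds with lines the estimates and 95% intervals over both weeks. The intervals of Elovl1 (0.26 to 0.76), Fads1 and Fads2 on HF lie above 0 and that of Elovl2 on LF (-0.62 to -0.18) lies below 0, though no difference passed after adjustment.

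Related genes were taken from 10 lists, to be read against medians of all genes of -0.0043 for HP minus NP, 0.0007 for HF minus LF and -0.0113 for 12 weeks minus 1 week. Between HP and NP, 0.441% of all genes passed, and each list count for that comparison is to be set beside this share. Of 8 other elongase and desaturase genes, 0 rose and 1 fell between HP and NP pools, and 7 did not pass (median 0.04). The gene that fell was Elovl6, which elongates palmitate to stearate, the main substrate of Scd enzymes. It read 11.53 in the reference, 11.89, 11.16, 11.48 and 11.05 at 1 week and 11.85, 11.50, 11.68 and 11.16 at 12 weeks, in the order LF-NP, LF-HP, HF-NP, HF-HP. HP lay below NP in 4 of 4 matched pairs, by between 0.35 and 0.73, and both groups overlapped only through LF-HP at 12 weeks and HF-NP at 1 week. With matched pools as blocks the call was lost (adjusted p = 0.0835). Leaving out any 1 of the 8 diet pools also ended it, with differences of -0.55 to -0.45 and adjusted p of 0.0821 to 0.177. Degs1, the dihydroceramide desaturase, was higher in HP by 0.28 (adjusted p = 0.219). Elovl7 read 5.70 in HF-HP at 1 week, in 1 array, and 4.45 to 4.70 elsewhere, all under the median level of all genes (5.85). Its HP minus NP difference was 0.20 (interval -0.27 to 0.66, adjusted p = 0.825).

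**Figure D4:**
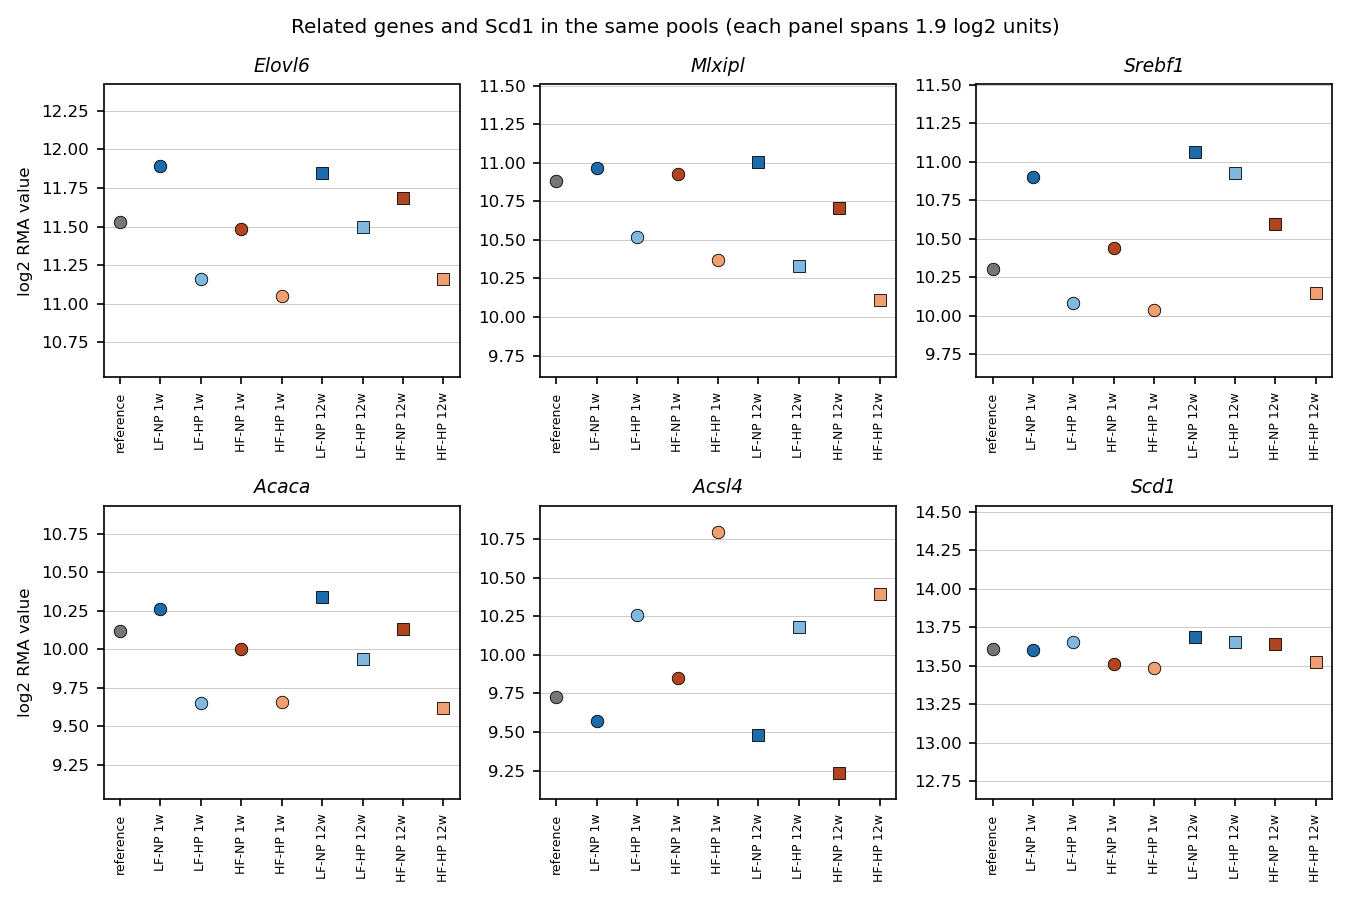
Log2 RMA value (y axis) of Elovl6, Mlxipl, Srebf1, Acaca, Acsl4 and, for comparison, Scd1 in each of the 9 pools (x axis), 1 point per pool; circles are the reference and 1 week, squares 12 weeks, and every panel spans 1.9 log2 units. Mlxipl and Acaca are lower in each HP pool than in each NP pool and Acsl4 is higher, while Scd1 moves by no more than 0.20 over all pools.

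Regulators of these genes gave 0 that rose and 1 that fell of 20 with a value (median -0.02). Mlxipl, which encodes ChREBP, a carbohydrate-responsive activator of lipogenic genes, fell by 0.57 with HP feeding (SE 0.07, adjusted p = 0.0257). Its 4 HP pools read 10.52, 10.37, 10.33 and 10.11 and its 4 NP pools 10.97, 10.93, 11.01 and 10.71, with no overlap. Srebf1, which encodes SREBP-1c, read 10.90, 10.08, 10.44 and 10.04 at 1 week and 11.06, 10.93, 10.60 and 10.15 at 12 weeks. It was lower in HP by 0.45 (interval -0.74 to -0.17, adjusted p = 0.238), and LF-HP at 12 weeks was the one HP pool near its NP pair. Of 12 genes of fatty acid synthesis, 0 rose and 2 fell (median -0.35). Acaca, the acetyl-CoA carboxylase that makes malonyl-CoA, fell by 0.47 (SE 0.07, adjusted p = 0.0446), and Pklr, the liver pyruvate kinase, fell by 0.87 (SE 0.13, adjusted p = 0.0474). With matched pools as blocks the calls of Acaca (adjusted p = 0.0778) and Pklr (adjusted p = 0.0822) were lost. Both calls and that of Mlxipl ended when any 1 diet pool was left out, with the direction unchanged and adjusted p of 0.0643 to 0.182.

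In the other lists, few genes passed. The cycle that serves elongation and the electron donors of desaturases gave 0 of 13 past the test (median 0.05), with Hacd1, a hydroxyacyl-CoA dehydratase, at 0.26 (adjusted p = 0.289) and the cytochrome Cyb5b at 0.12 (adjusted p = 0.622). Among 18 genes for activation and esterification of polyunsaturated fatty acids 1 rose and 0 fell (median -0.01). This was Acsl4, an acyl-CoA synthetase that prefers arachidonic acid, at 10.26, 10.80, 10.18 and 10.40 in HP pools and 9.57, 9.85, 9.48 and 9.23 in NP pools. It rose by 0.87 (SE 0.12, adjusted p = 0.0395), and by 0.75 to 0.98 with any 1 diet pool left out (adjusted p 0.073 to 0.154).

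Sterol synthesis genes under SREBP-2 were higher in HP for 16 of 16 with a value (median 0.28), against 48.1% of all genes, though 0 passed. The same 16 were higher in HF (median 0.37), against 50.4% of all genes, and again 0 passed. Sqle, a squalene epoxidase, was higher in HP by 0.89 (adjusted p = 0.0886) and Msmo1, a methylsterol oxidase, by 0.57 (adjusted p = 0.201). PPAR-alpha targets of fatty acid oxidation gave 0 of 18 past the test between HP and NP (median 0.07), with Cyp4a10, a fatty acid hydroxylase, at 0.58 (adjusted p = 0.166) and the fatty acid binding protein Fabp1 at -0.24 (adjusted p = 0.232). At 12 weeks 18 of 18 were lower than at 1 week (median -0.23), with 0 past the test. Of all genes, 45.4% were higher at 12 weeks. Peroxisomal genes that shorten very long fatty acids gave 0 of 12 (median -0.03), with Scp2 at -0.16 (adjusted p = 0.34) and Acox3 at -0.14 (adjusted p = 0.602).

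Clock genes and genes biased to the male liver were listed because of Elovl3. Of 18 clock genes 2 rose with HP feeding and 0 fell (median -0.01), Noct by 1.20 (SE 0.12, adjusted p = 0.0148) and Ciart by 1.34 (SE 0.18, adjusted p = 0.0401). The call of Ciart was lost with matched pools as blocks (adjusted p = 0.055) and with any 1 diet pool left out (adjusted p 0.0525 to 0.161), and that of Noct was kept in 3 of 8 such fits (0.0254 to 0.0811). The activator Arntl was highest in the reference (7.29) and HF-NP 1 week (7.20) pools, which were also the highest for Elovl3, and read 6.40 to 7.01 elsewhere. The repressor Nr1d1 was lowest in the same pools, at 7.66 and 7.79, and read 8.30 to 8.77 elsewhere. Arntl and Nr1d1 were picked after their values were seen. Noct and Ciart, the 2 clock genes that passed, did not set these pools apart in this way. The part of the clock in the level of Elovl3 was not tested. Of 12 genes biased to the male liver 0 passed (median -0.13), with the steroid dehydrogenase Hsd3b5 at -0.97 (adjusted p = 0.0975) and Selenbp2 at -0.65 (adjusted p = 0.118).

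Profiles most like those of the members were sought for the 2 members with a range of at least 1 log2 unit, among 354 genes with such a range and a mean above the median of all genes. For Elovl3 the 5 highest correlations over 9 pools were with Snx29 (r = 0.93), Zfand4 (0.91), Prdm10 (0.88), Angptl4 (0.88) and Etfbkmt (0.87). Of these 5, all were lowest in LF-HP at 12 weeks like Elovl3, and Snx29, for example, read 7.88 in the reference, 7.91 in HF-NP at 1 week and 6.80 in LF-HP at 12 weeks. They were chosen by likeness to Elovl3 over the same pools, so a shared lowest pool follows in part from the choice. Of all genes, 16.4% were lowest in LF-HP at 12 weeks. For Scd2 the 5 highest correlations were with Tagln2 (0.97), Gpx3 (0.87), Pygb (0.87), App (0.85) and S100a11 (0.82), all 5 highest in HF-HP at 1 week. Scd2 reaches a range of 1 only through that pool (0.69 without it), so the choice of genes by range favours those high in it. Without that pool the correlations were 0.88 for Tagln2 and 0.29 to 0.49 for the other 4, so those rest mainly on 1 array.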

How the data were processed

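Liver expression values were used as the authors deposited them: log2 expression estimates made by robust multiarray analysis (RMA), which corrects background, quantile normalises and summarises probes by probe set. The methods describe probe sets regrouped by Entrez gene, while the table carries the array's own probe set numbers. Of 35556 probe sets, 21789 had 1 gene symbol in the platform annotation, 1621 several and 12146 none, and the brightest probe set with 1 symbol stood for each of 19938 genes. HP and NP, HF and LF, and 12 weeks and 1 week were compared with limma 3.58.1 (R 4.3.3), in an additive model of protein, fat and week fitted to 8 diet pools (4 residual degrees of freedom, 3.52 from the prior). Interactions took 1 more term. P-values were adjusted by Benjamini-Hochberg over all genes, at a threshold of 0.05. The reference pool entered no test. Each diet and week has 1 pool on 1 array, so there are no replicate pools. The p-values and residual SDs rest on the spread left by the additive terms, where interactions and array noise are mixed. The number of arrays limits the precision. The method was checked on simulated data that held independent noise and a change with protein only. Interactions and array effects were not simulated, so that check does not cover them. The members, the 10 gene lists and the markers were chosen with earlier results of these data known. All members were named, and from each list the genes past the test in a main comparison (up to 6) or, with none, the 2 with the smallest adjusted p between HP and NP. Other genes (Degs1, Elovl7, Srebf1, Arntl, Nr1d1, markers) were chosen after their values were seen. Of 163 list entries, 147 had a value, matched by symbol or synonym. Marker signals were summed on the linear scale. Alternatives are given in the closing section. Tables were made with Python 3.11.15 and pandas 2.3.3.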

Additional observations from a re-analysis of the deposited data

Results flagged for a closer look

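Within the 4 HP or the 4 NP pools, 3 of the 18 groups checked held a pool far from the other 3, by a gap that chance alone would flag in about 1 of 20 groups. Scd2 stood at 7.55 in the HF-HP pool of 1 week, against 6.73 to 6.76 in the other HP pools. Elovl3 stood at 11.08 in the LF-HP pool of 12 weeks, below the other HP pools, and at 12.29 in HF-NP at 1 week, where the remaining NP pools read 11.51 to 11.57. The pools of such a group differ in fat and week by design.

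For 2 genes the HP minus NP differences ran one way in both pairs on low fat and the other way in both pairs on high fat, and for 1 gene they did so between 1 and 12 weeks. Fads2 was lower in HP on low fat and higher on high fat, with a difference between backgrounds of 0.25 (interval -0.013 to 0.51, adjusted p = 0.717). Elovl5 did the same, with 0.28 (interval -0.06 to 0.62, adjusted p = 0.731). Scd2 was higher in HP in both pairs of 1 week and lower in both of 12 weeks, with a difference between weeks of -0.60 (interval -1.40 to 0.20, adjusted p = 1.0). None of these differences passed the test.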

How the results depend on the processing

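The 5 counts of members past the test were 0 in all 74 recomputed values, over up to 22 other settings. Both interactions were refitted under fewer of these, with no pool left out, no matched blocks and no array weights. Many of these zeros say little about the members. At the threshold of 0.05, HF against LF and the interaction of protein and week called 0 of all genes in every setting. The comparison of 12 weeks with 1 week called at most 1. Adding the reference pool repeats the main fit, since week 0 has its own term. Counts over all genes between HP and NP moved from 88 to 39 with matched pools as blocks and to 219 among genes above the median level. They were 152 with centred arrays, 140 with array weights, and 1 to 36 with 1 diet pool left out. In the pools of 1 week, 12 weeks, LF or HF alone they were 0. The interaction of protein and fat gave 0 to 2. Without covariates, adjusted p for HP against NP was 0.155 for Elovl6, 0.147 for Pklr, 0.0975 for Acaca, 0.0668 for Acsl4 and 0.0549 for Mlxipl, so these calls were lost; those of Noct and Ciart were kept. The probe set mean cannot change a member, since each has 1. Signs turned in 43 of 531 recomputed member differences, 24 of them with a pool left out, and the members concerned had differences of at most 0.16 in size. Part of the 531 could not turn, since the design is balanced. Matched blocks, no covariates, the added reference pool, the choice of genes above the median level and other estimates of the spread leave a difference unchanged. For HP minus NP, the pools of 1 week alone gave 0.014 for Scd1; those of 12 weeks -0.15 for Scd2 and -0.030 for Elovl5; LF pools 0.010 for Scd1, -0.095 for Scd2, -0.021 for Fads1, -0.049 for Fads2 and -0.11 for Elovl5; HF pools 0.10 for Elovl2. For HF minus LF, 12 week pools gave -0.15 for Scd2 and -0.045 for Elovl1, 1 week pools -0.020 for Elovl5, and array weights -0.016 for Fads2. For 12 weeks minus 1 week, LF pools gave 0.22 for Scd2 and 0.10 for Fads3, HF pools -0.032 for Elovl1 and 0.041 for Elovl5, and array weights 0.011 for Scd2 and 0.0082 for Fads3. The cause was not tested. Ranges with 1 pool left out were, for HP minus NP, -0.094 to 0.33 for Scd2 and -0.048 to 0.11 for Elovl5; for HF minus LF, -0.082 to 0.34 for Scd2, -0.047 to 0.10 for Fads1, -0.039 to 0.053 for Fads2, -0.063 to 0.12 for Elovl1 and -0.18 to 0.010 for Elovl2; for 12 weeks minus 1 week, -0.28 to 0.15 for Scd2, -0.14 to 0.0078 for Fads1, -0.10 to 0.076 for Fads3, -0.028 to 0.18 for Elovl1 and -0.15 to 0.0072 for Elovl5. With centred arrays, an alternative chosen after seeing the data, 5 members were highest in HF-HP at 1 week instead of 6, and groups overlapped for all 9 members as before. Without the reference pool the count was 6. With 1 array for each diet and week, an effect of the array cannot be told from that of the pool.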
